A study of Mus musculus with 30 samples.

Results

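The genes described here are 38 genes of the ATF4 pathway, chosen by name from 49089 gene identifiers: 7 regulators and stress response genes, 8 enzymes of amino acid synthesis, 4 enzymes of folate one-carbon metabolism, 6 amino acid transporters and 13 cytosolic tRNA synthetases. All 38 matched an identifier and all 38 were among the 11368 genes with enough reads to be tested. The RNA came from AML12 cells, a mouse hepatocyte line derived from an animal carrying a TGF-alpha transgene. Every group was transiently transfected with siRNA, starved of serum overnight in DMEM with 0.1% BSA, and then given insulin at 100 nM for 6 h or a mock treatment, which the labels list as 0 min. Control cells received a non-silencing siRNA, FoxK1 KD and FoxK2 KD cells an siRNA against the forkhead factor Foxk1 or Foxk2, and DKD cells siRNA against both. The 8 groups held 30 samples, 4 each except for Control with insulin and DKD with insulin, which held 3 each. Nothing in the labels says whether replicates came from separate cultures, so p-values measure the spread between these samples only.

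ATF4 is a bZIP transcription factor whose mRNA is translated when the initiation factor eIF2-alpha is phosphorylated, as happens in amino acid shortage or endoplasmic reticulum stress, and its output is also raised by mTORC1, a kinase complex downstream of insulin. Among its known targets are enzymes that make asparagine, serine, proline and cysteine, mitochondrial folate enzymes that use serine as a source of one-carbon units, amino acid transporters and many of the enzymes that charge tRNAs. In liver cells the same factor also drives genes that restrain growth signalling, such as Trib3 and Sesn2.

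ATF4 binds with a C/EBP partner to the C/EBP-ATF response element, written TGATGNAA, where N is any base. Of the 38 genes, 30 had a promoter window in the RefSeq table of GRCm38.p6, and 10 of these 30 (33.3%) held the element on either strand: Aars, Asns, Chac1, Gars, Iars, Pycr1, Slc1a4, Tars, Trib3 and Yars. Over all 27025 genes of the table, 4.51% held it. The forkhead core GTAAACA was searched on both strands because FoxK factors bind forkhead sequences. It was in 0 of the 30 genes and in 4.05% of all genes, so no window of a member held both of these sequences. The site that the paper proposes for FoxK factors may also have A for the G of this core and T for its C. Genes were not counted for those forms. Windows of members do hold them, such as AATAAACA in Mthfd1l and Shmt2 and the reverse complement TGTTTATT in Phgdh. The 4 windows below belong to the members with the element whose changes were largest, and capitals mark the element as it reads 5′ to 3′ on the strand of the gene. In Chac1 it begins 193 bases upstream of the start site (chr2:119350992-119351291, plus strand), in Trib3 15 bases downstream (chr2:152344011-152344310, minus strand), in Asns 23 bases upstream (chr6:7693160-7693459, minus strand) and in Slc1a4 4 bases upstream (chr11:20332664-20332963, minus strand).
Chac1: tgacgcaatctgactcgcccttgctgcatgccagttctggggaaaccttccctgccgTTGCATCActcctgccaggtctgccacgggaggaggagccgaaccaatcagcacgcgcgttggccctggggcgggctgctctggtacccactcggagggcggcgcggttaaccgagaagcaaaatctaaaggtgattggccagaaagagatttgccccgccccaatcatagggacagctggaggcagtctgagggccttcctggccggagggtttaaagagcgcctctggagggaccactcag
Trib3: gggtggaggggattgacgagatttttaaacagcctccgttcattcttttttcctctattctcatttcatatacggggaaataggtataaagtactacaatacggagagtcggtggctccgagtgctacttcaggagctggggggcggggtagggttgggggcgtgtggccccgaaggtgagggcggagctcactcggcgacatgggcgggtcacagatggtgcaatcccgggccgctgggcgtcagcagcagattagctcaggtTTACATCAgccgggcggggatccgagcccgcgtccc
Asns: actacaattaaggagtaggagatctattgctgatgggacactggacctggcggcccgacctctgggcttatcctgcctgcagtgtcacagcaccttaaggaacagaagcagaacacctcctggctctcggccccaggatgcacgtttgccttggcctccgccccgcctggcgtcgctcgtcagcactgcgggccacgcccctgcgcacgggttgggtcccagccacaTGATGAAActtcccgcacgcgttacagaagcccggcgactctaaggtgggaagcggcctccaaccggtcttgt
Slc1a4: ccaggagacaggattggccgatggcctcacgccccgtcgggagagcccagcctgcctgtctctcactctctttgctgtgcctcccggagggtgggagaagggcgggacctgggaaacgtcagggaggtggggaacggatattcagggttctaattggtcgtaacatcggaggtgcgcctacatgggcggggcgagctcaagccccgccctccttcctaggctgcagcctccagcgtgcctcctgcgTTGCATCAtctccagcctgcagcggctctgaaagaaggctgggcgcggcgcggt

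Depth was 2141460 to 5668270 counted reads per sample, and levels are given as TMM-scaled CPM (each gene's reads relative to the library's total, rescaled). Foxk1 fell to 45.2% of Control in basal FoxK1 KD cells and to 57.1% in basal DKD cells, and Foxk2 fell to 33.7% in basal FoxK2 KD cells and to 35.8% in basal DKD cells, each called by edgeR. With insulin the remaining Foxk1 mRNA was 58.2% (single knockdown) and 64.6% (double knockdown) of the Control level, and the remaining Foxk2 mRNA 40.4% and 39.5%. Foxk2 also fell in basal FoxK1 KD cells, to 83.5% of Control (adjusted p = 0.0487), and insulin lowered Foxk1 in Control by itself (log2 fold change -0.62, adjusted p = 0.00037). Hepatocyte markers were present (Krt8, Krt18 and Hnf4a in every group, 10 of 11 at a mean above 1 CPM), endothelial and fibroblast markers summed to at most 1.39 CPM in any sample, and Adgre1 and Epcam had 0 counts. The cholangiocyte markers Krt19, Krt7 and Sox9 were also present in every group. Their summed level was 639 to 1073 CPM in basal Control and 534 to 610 in basal FoxK1 KD cells. Macrophage markers summed to 8.22 to 12.9 CPM in basal Control, 17.65 to 22.1 in basal FoxK1 KD cells and 4.09 to 6.33 in Control after insulin, and Csf1r gave the largest share. The part of these markers in the results was not tested. One library stood apart, replicate 1 of basal Control, with 422.7 CPM of Phgdh against 247.3 to 269 in the other 3 and 165.3 of Ddit4 against 77.01 to 91.25, and calls of members that were lost or gained without it are given with each comparison. The 12 basal samples of Control, FoxK1 KD and FoxK2 KD cells also differed as a set from the 18 others: 52 genes were lower and 83 higher in every one of the 12 than in every one of the 18. None of the 38 genes was among them. With so few of the 11368 genes tested separated in this way, that absence is not read as a result about the 38. The labels name no cause for this division. Insulin in Control, FoxK1 KD and FoxK2 KD cells and DKD against Control in basal cells were compared across it, so it cannot be told apart from those contrasts, while insulin in DKD cells and the other contrasts between genotypes at one treatment lie on one side of it. The test of whether insulin acted differently in DKD than in Control sets a contrast within one side against a contrast across the division, and so cannot be told apart from it either.

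For comparing genes with each other, levels were divided by exonic length in kilobases. In basal Control cells the most abundant of the 38 per length was Gars, the glycyl-tRNA synthetase, at 223 ± 26.8 CPM per kb (SD, n = 4). Slc3a2, the shared heavy chain of several amino acid exchangers, followed at 155 ± 25.6, then Psat1, the middle enzyme of serine synthesis, at 148 ± 9.23, Nars, the asparaginyl-tRNA synthetase, at 136 ± 19.7, and Atf4 itself at 131 ± 17.02. Slc3a2, Psat1, Nars and Atf4 did not differ from the next gene in this order by more than the larger of the 2 SDs. At the other end stood Pycr1, the last enzyme of proline synthesis, at 2.76 ± 0.578 CPM per kb, and Cbs, which makes cystathionine, at 0.163 ± 0.0784 CPM per kb. Cbs drew 250 reads in all 30 samples together, Chac1 654 and Ddit3 945, so counting error is large for these 3 genes.

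**Figure D1:**
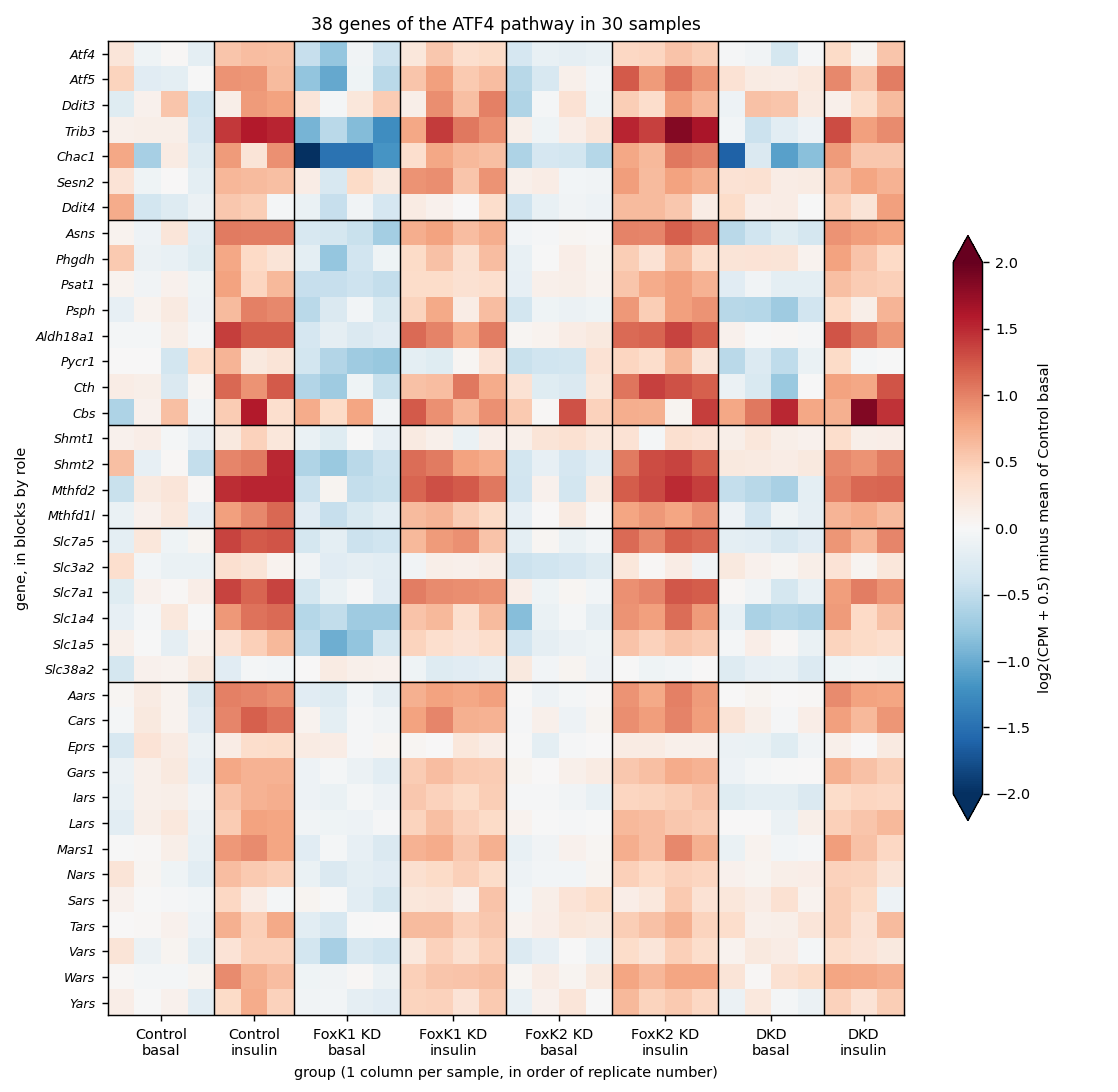
Each cell is 1 gene (rows, in blocks of regulators, synthesis, one-carbon enzymes, transporters and synthetases) in 1 of 30 samples (columns, by group), coloured by log2(CPM + 0.5) minus the mean of basal Control. The insulin columns are red for most rows in each genotype, and Slc38a2, Shmt1, Eprs and Sars stay pale.

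The first question was what insulin does to these genes in Control cells. Insulin raised 31 of the 38 and lowered 0 at an adjusted p below 0.05 (edgeR quasi-likelihood test, Benjamini-Hochberg over all genes tested), against a background of 12.4% of all genes called higher and 13.1% called lower. The median log2 fold change over the 38 was 0.69, beside -0.01 over all genes tested. In bulk RNA of a culture, a change in the share of cells and a change in RNA per cell cannot be told apart. By role, 5 of 7 regulators, 6 of 8 synthesis enzymes, 4 of 4 one-carbon enzymes, 4 of 6 transporters and 12 of 13 synthetases rose. The members and the role lists were chosen with results of these data known.

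Atf4 mRNA was at 363, 291, 313 and 269 CPM in basal Control and at 454, 474 and 466 after insulin, all 3 insulin samples above all 4 basal ones. Its log2 fold change was 0.59 (SE 0.12, adjusted p = 0.000242). Trib3, a pseudokinase that binds Akt, had the largest change of the 38 in Control: 11.6, 11.75, 11.7 and 8.39 CPM in basal cells and 29.5, 33.2 and 31.75 after insulin, a log2 fold change of 1.55 (SE 0.16). Its groups were far from overlapping. Mthfd2, the mitochondrial folate dehydrogenase, was at 21.0, 32.5, 34.2 and 29.1 CPM in basal cells and at 80.4, 83.1 and 83.6 after insulin, a log2 fold change of 1.49 (SE 0.13).

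The transporters Slc7a1 and Slc7a5 followed in size. Slc7a1, the carrier for arginine and lysine, was at 33.7, 42.3, 40.4 and 43.9 CPM in basal cells and at 102, 89.8 and 103 after insulin (log2 fold change 1.29, SE 0.10). Slc7a5, the leucine exchanger LAT1, was at 37.99, 50.8, 40.7 and 45.0 CPM in basal cells and at 111, 102 and 105 after insulin (1.28, SE 0.10). Both rose more than 2-fold with no overlap. Aldh18a1, which makes the precursor of proline, was at 53.6, 53.5, 59.8 and 53.9 CPM in basal cells and at 144, 128 and 129 after insulin (1.28, SE 0.09), and the 4 basal samples lay closer together than those of any of the 5 genes before it relative to their mean. Shmt2, which splits serine in mitochondria, rose by 1.15 (SE 0.14), Cth, the cystathionine-cleaving enzyme that yields cysteine, by 1.11 (SE 0.16), and Asns, asparagine synthetase, by 1.02 (SE 0.09) on the log2 scale.

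The 7 genes not called in Control were Ddit3 (CHOP, a bZIP factor tied to cell death), Ddit4 (REDD1, an inhibitor of mTORC1), Pycr1, Cbs, Slc3a2, Slc38a2 and Sars, the seryl-tRNA synthetase. Slc38a2, the sodium-coupled neutral amino acid transporter SNAT2 and a known ATF4 target, was at 482, 656, 643 and 708 CPM in basal Control and 529, 600 and 594.5 after insulin, so its groups overlapped (log2 fold change -0.12, SE 0.09). The overlap rests on replicate 1 of basal Control, the library that stood apart, and without it Slc38a2 was called lower (-0.22, adjusted p = 0.0274). Ddit3 had a log2 fold change of 0.61 (SE 0.25, adjusted p = 0.0667) and Cbs of 1.05 (SE 0.46, adjusted p = 0.0918), both from few reads. Without replicate 1 of basal Control, Ddit4 (0.60, adjusted p = 0.00132, against 0.30 with it) and Slc3a2 (0.34, adjusted p = 0.00247, against 0.21) were called higher. Ddit3 was called higher without replicate 3 of basal Control (0.84, adjusted p = 0.0156) or without replicate 1 of Control with insulin (adjusted p = 0.02), and Cbs without replicate 3 of basal Control (adjusted p = 0.05 after rounding). Of the called genes 4 depended on single libraries. Chac1, the enzyme that degrades glutathione, had an adjusted p of 0.0475 and lost its call when any 1 of 23 of the 30 samples was left out (adjusted p up to 0.185), among them replicates 2, 3 and 4 of basal Control and 1 and 3 of Control with insulin. Phgdh lost it without replicate 3 or 4 of basal Control or replicate 1 of Control with insulin, Shmt1 without replicate 4 of basal Control or 2 of Control with insulin, and Eprs without replicate 1 or 4 of basal Control or 2 or 3 of Control with insulin (adjusted p 0.0523 to 0.173 over these).

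In FoxK1 KD cells insulin raised 32 of the 38 and lowered 1 (background 16.2% higher and 15.4% lower), with a median log2 fold change of 0.80. In FoxK2 KD cells it raised 33 and lowered 0 (background 14.4% and 13.7%), with a median of 0.68. In DKD cells it raised 27 and lowered 0 (background 8.31% and 7.99%), with a median of 0.60. These 4 comparisons have no sample in common, but they come from the same fit, with an estimate of spread shared by all groups. In all 4 of them 27 genes rose, including Atf4, Atf5, Trib3, Chac1, Sesn2, Asns, Psat1, Psph, Aldh18a1, Cth, the 3 mitochondrial folate enzymes and 10 synthetases. The share of all genes tested that rose in all 4 was not counted. It cannot exceed the 8.31% called higher in DKD cells. Phgdh and Vars rose in 3 genotypes, Pycr1 and Slc3a2 in 2, and Ddit3, Ddit4, Shmt1, Eprs and Sars in 1. Cbs and Slc38a2 rose in none.

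**Figure D2:**
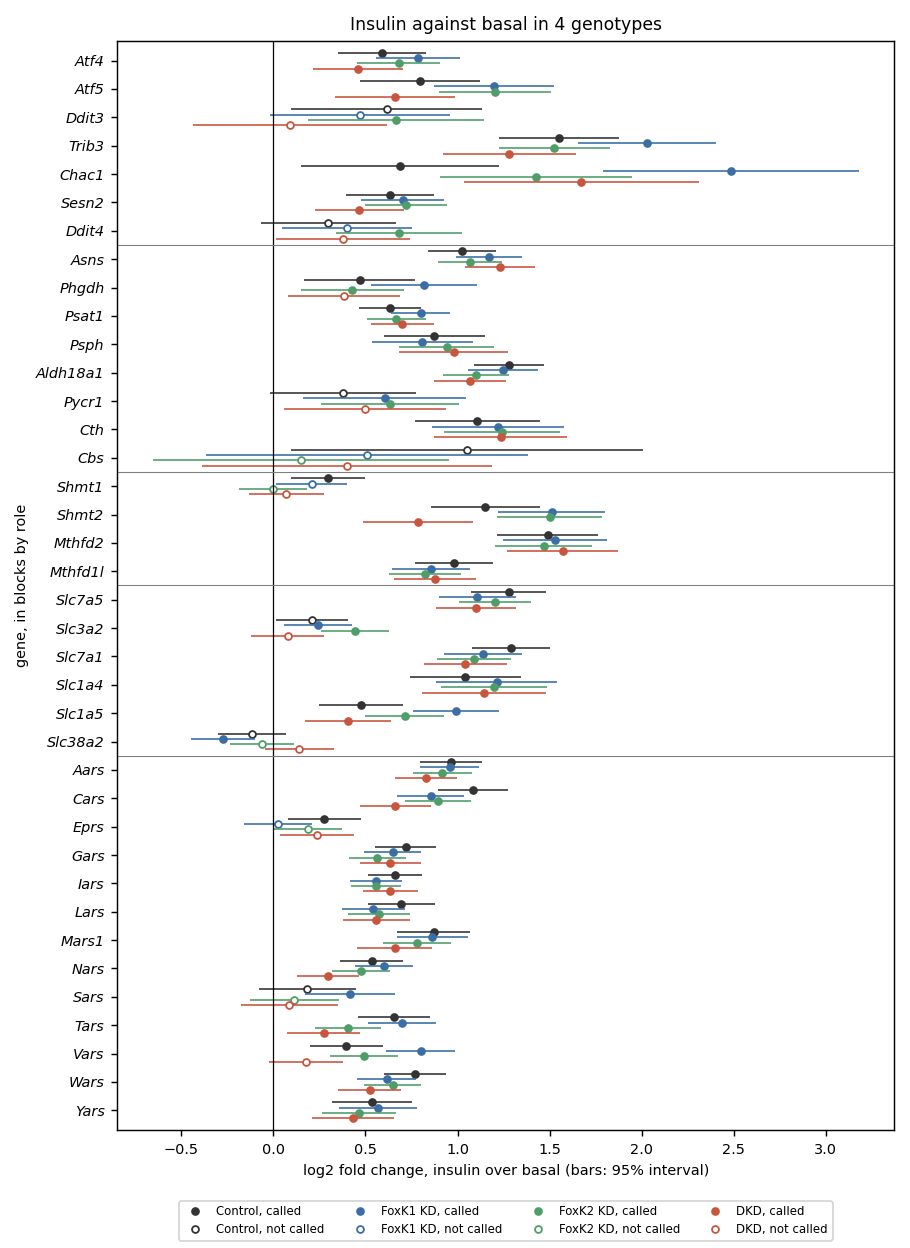
Log2 fold change of insulin over basal (horizontal axis) for each of the 38 genes (vertical axis) in the 4 genotypes, with 95% intervals. Filled points passed the test (31, 33, 33 and 27 genes). Nearly all points lie to the right of 0.

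In FoxK1 KD cells the largest change was that of Chac1. Chac1 was at 0.679, 1.65, 1.65 and 2.14 CPM in basal cells, from 3 to 8 reads a sample, and at 7.02, 9.71, 8.89 and 8.54 after insulin, a log2 fold change of 2.49 (SE 0.33) with no overlap. Trib3 was at 5.43, 7.26, 5.65 and 4.28 CPM in basal cells and at 18.8, 29.1, 22.9 and 20.8 after insulin (2.03, SE 0.18). Mthfd2 was at 21.3, 29.7, 20.5 and 20.9 CPM in basal cells and at 65.0, 70.6, 67.7 and 60.1 after insulin (1.53, SE 0.14). In each of these 3 genes every insulin sample was above every basal one. Shmt2 was at 88.2, 79.9, 92.7 and 100.1 CPM in basal cells and at 292, 278, 236 and 224 after insulin (1.51, SE 0.14). Aldh18a1 was at 43.5, 48.9, 44.9 and 47.1 CPM in basal cells and at 122, 110, 92.3 and 112 after insulin (1.25, SE 0.09). Atf4 was at 224, 179, 291 and 229 CPM in basal cells and at 358, 444, 389.5 and 400.1 after insulin (0.78, SE 0.11). These 3 genes also showed no overlap. Slc38a2 was the gene that fell, from 618, 691.5, 658 and 651.5 CPM to 579, 515, 528 and 547, a log2 fold change of -0.27 (SE 0.08, adjusted p = 0.012). It lost its call when the trend with GC content and length was removed (-0.12, adjusted p = 0.187), as did Slc3a2 (0.07, adjusted p = 0.462, against 0.24 before) and Pycr1 (0.43, adjusted p = 0.126). Pycr1 and Slc3a2 also lost their calls when any 1 of 4 and of 6 FoxK1 KD samples was left out, and Sars without replicate 4 with insulin (adjusted p 0.0585 to 0.128 over these samples). Without replicate 1 of basal Control, Ddit4 was called higher (adjusted p = 0.0157).

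In FoxK2 KD cells Trib3 again led, with 11.7, 10.1, 11.9 and 12.75 CPM in basal cells and 32.0, 28.6, 39.7 and 34.3 after insulin (1.53, SE 0.14). Shmt2 was at 104, 120, 106 and 116 CPM in basal cells and at 276, 332, 344 and 312 after insulin (1.499, SE 0.14). Mthfd2 was at 21.9, 30.4, 22.04 and 32.1 CPM in basal cells and at 66.8, 72.35, 81.9 and 75.9 after insulin (1.47, SE 0.13). All 3 were more than doubled in every insulin sample relative to the basal mean. Chac1 was at 3.40, 4.24, 4.11 and 3.52 CPM in basal cells and at 9.70, 8.80, 11.8 and 11.3 after insulin (1.42, SE 0.25). Cth was at 20.4, 13.9, 13.4 and 19.6 CPM in basal cells and at 35.3, 43.5, 41.0 and 38.4 after insulin (1.24, SE 0.15), and the groups of both genes were apart. All 7 regulators rose here, Atf4 by 0.68 (SE 0.11) and Ddit3 by 0.67 (SE 0.23) on the log2 scale. Ddit3 lost its call without any 1 of 5 FoxK2 KD samples (adjusted p up to 0.0947) and Phgdh without replicate 1 of the basal or 3 of the insulin samples (adjusted p up to 0.0681).

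In DKD cells Chac1 had the largest change, from 1.44, 4.36, 2.31 and 2.82 CPM to 10.2, 8.13 and 8.18 (log2 fold change 1.67, SE 0.31). Mthfd2 went from 20.4, 19.5, 18.05 and 25.2 CPM to 58.5, 64.6 and 65.0 (1.57, SE 0.15). Trib3 went from 10.3, 7.85, 9.25 and 10.01 CPM to 27.3, 19.35 and 21.2 (1.28, SE 0.17). The basal and insulin samples of all 3 were separate. Cth went from 15.2, 13.4, 9.72 and 16.4 CPM to 29.3, 28.6 and 40.2 (1.23, SE 0.17), and Asns from 127, 138.5, 154.5 and 144 CPM to 343, 329 and 317 (1.23, SE 0.09). Atf4 was at 301, 292, 240.2 and 302.5 CPM in basal cells and at 399, 318.5 and 453 after insulin (0.46, SE 0.12), and lost its call without replicate 3 with insulin (adjusted p = 0.0763). Slc1a5 lost its call without replicate 1 with insulin, Nars without replicate 1 or 2 with insulin, and Tars without any 1 of 6 samples (adjusted p up to 0.253). Without replicate 1 of basal Control, Ddit4, Phgdh and Eprs were called higher (adjusted p 0.0188 to 0.0378).

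**Figure D3:**
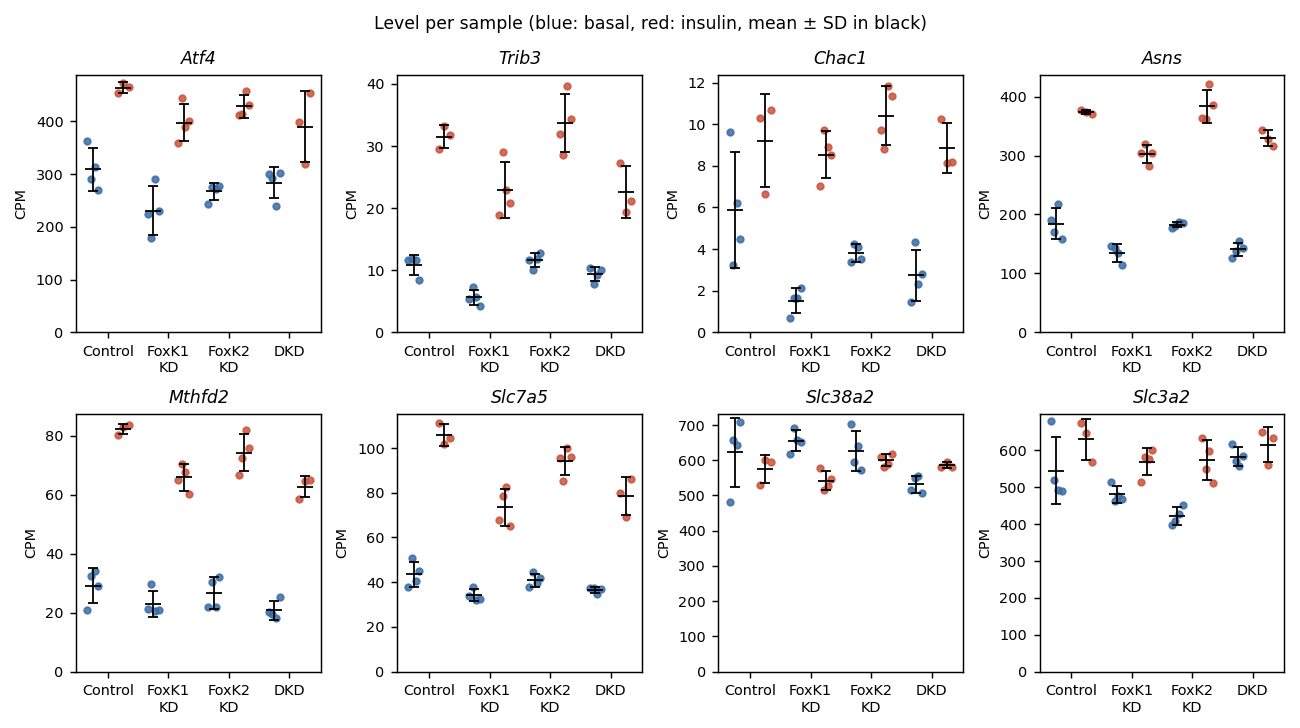
CPM (vertical axes, from 0) of 8 genes in every sample, by genotype (horizontal axes), blue for basal and red for insulin, with the group mean and SD in black. Atf4, Trib3, Asns, Mthfd2 and Slc7a5 stand higher with insulin in all 4 genotypes, Slc38a2 does not, and Chac1 and Trib3 are lowest in basal FoxK1 KD cells.

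The synthetases of the list are set beside other genes of tRNA charging as a description. Among the 13 cytosolic synthetases of the list, insulin raised 12 in Control and FoxK1 KD cells, 11 after FoxK2 KD and 10 after the double knockdown. In the same order of genotypes the median log2 fold changes were 0.66, 0.61, 0.56 and 0.52. In Control the largest were Cars, for cysteine, at 1.08 (SE 0.09) and Aars, for alanine, at 0.96 (SE 0.08), and the smallest of those called was Eprs, for glutamate and proline, at 0.28 (SE 0.10). The other 10 genes of cytosolic charging, 7 further synthetases and subunits and 3 scaffold proteins of the multi-synthetase complex, had medians of -0.07, 0.18, 0.06 and 0.09, with 1, 4, 1 and 1 higher and 2, 3, 1 and 1 lower. Over all genes tested 12.4, 16.2, 14.4 and 8.31% were called higher and 13.1, 15.4, 13.7 and 7.99% lower, in the same order. Beside these shares, the counts of the 10 genes in Control, FoxK2 KD and DKD cells are not read as a result. Qars, the glutaminyl-tRNA synthetase, fell in all 4 genotypes, by 0.49 in Control on the log2 scale, and Farsb, a subunit of the phenylalanyl enzyme, rose in all 4, by 0.30 in Control. Aimp1, a scaffold protein, fell by 0.43 in Control on the log2 scale. Among 17 mitochondrial synthetases the medians were 0.06, 0.13, 0.06 and -0.01, with 4, 3, 5 and 3 higher and 0, 2, 2 and 0 lower, which beside the shares of all genes called is not read as a result about these genes. The largest in Control were Nars2 at 0.66, Cars2 at 0.61 and Mars2 at 0.51. These lists were chosen with earlier results known, and the difference between them was not tested.

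**Figure D4:**
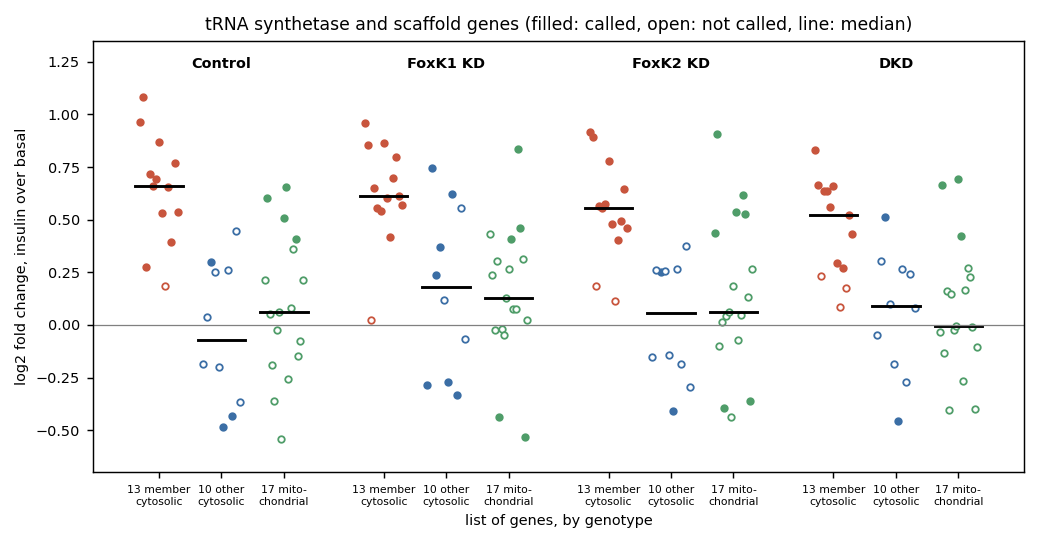
Log2 fold change of insulin over basal (vertical axis) for each gene of 3 lists in each genotype (horizontal axis): the 13 member synthetases, 10 other genes of cytosolic charging and 17 mitochondrial synthetases. Lines are medians, 0.66, -0.07 and 0.06 in Control, and filled points passed the test.

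Other genes of the pathway were counted from fixed lists. Of 20 other known ATF4 targets, 17 were tested, and insulin raised 8, 9, 11 and 7 of them and lowered 2, 1, 1 and 2 in the 4 genotypes, taken in the order Control, single knockdowns of Foxk1 and Foxk2, and DKD. The shares of all genes called in these comparisons were 8.31 to 16.2% higher and 7.99 to 15.4% lower. Slc7a11, the cystine importer, had the largest change in each genotype, with log2 fold changes of 1.82, 1.65, 1.78 and 2.27. Vegfa, the endothelial growth factor, came next at 0.82, 1.57, 1.30 and 1.41. Sqstm1, the autophagy receptor p62, fell in all 4, by 0.55 in Control on the log2 scale. Among 12 eIF2-alpha kinases, phosphatase subunits and partner factors, insulin raised 3, 2, 2 and 1 and lowered 1, 2, 0 and 1. Beside the shares of all genes called, these counts are not read as a result about this list. Ppp1r15b, a subunit that directs the phosphatase to eIF2-alpha, rose in all 4 genotypes, by 0.33 in Control, while its stress-induced relative Ppp1r15a fell by 0.42 in Control and by 0.71 in DKD cells on the log2 scale.

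Members with and without the C/EBP-ATF element are compared as a description. In Control the 10 with it had a median insulin log2 fold change of 0.70 (range 0.38 to 1.55, 9 called) and the 20 without it 0.63 (range -0.12 to 1.49, 14 called). In DKD cells the medians were 0.73 and 0.46, with 9 and 11 called. Chac1, Trib3, Asns and Slc1a4, whose windows are printed above, rose in all 4 genotypes, while Mthfd2, Slc7a1 and Aldh18a1, which rose about as far, held no match in this window.

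The second question was what loss of the FoxK factors does in basal cells. The 3 comparisons with Control share the 4 basal Control samples. FoxK1 KD lowered 12 of the 38 and raised 0 (background 4.71% lower and 3.39% higher), with a median log2 fold change of -0.24 beside -0.01 over all genes tested. The 12 were Atf4, Atf5, Trib3 and Chac1 of the regulators, Asns, Psat1 and Pycr1 of the synthesis enzymes, Shmt2, the transporters Slc7a5, Slc1a4 and Slc1a5, and Vars, the valyl-tRNA synthetase. So 4 of 7 regulators, 3 of 8 synthesis enzymes, 1 of 4 one-carbon enzymes, 3 of 6 transporters and 1 of 13 synthetases fell.

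Chac1 was at 9.64, 3.25, 6.20 and 4.46 CPM in basal Control and at 0.679, 1.65, 1.65 and 2.14 in FoxK1 KD, a log2 fold change of -1.91 (SE 0.34, adjusted p = 0.000359) that rests on 97 and 23 reads in all. Trib3 was at 11.6, 11.75, 11.7 and 8.39 CPM in Control and at 5.43, 7.26, 5.65 and 4.28 in FoxK1 KD (-0.93, SE 0.19). Both genes were lower in every FoxK1 KD sample than in any Control sample. Pycr1 was at 10.8, 10.75, 8.19 and 13.75 CPM in Control and at 8.15, 6.93, 6.35 and 6.15 in FoxK1 KD (-0.67, SE 0.20). Slc1a4, the transporter ASCT1 for alanine, serine and cysteine, was at 14.2, 15.75, 18.6 and 15.9 CPM in Control and at 10.6, 11.2, 9.64 and 9.63 in FoxK1 KD (-0.65, SE 0.16). Slc1a5, the glutamine transporter ASCT2, was at 41.7, 38.5, 34.0 and 40.7 CPM in Control and at 26.9, 19.5, 22.1 and 30.2 in FoxK1 KD (-0.64, SE 0.11). These 3 also did not overlap, although for Pycr1 the groups nearly touched. Atf4 was at 363, 291, 313 and 269 CPM in Control and at 224, 179, 291 and 229 in FoxK1 KD, and here the groups overlapped at replicate 3 (-0.42, SE 0.11, adjusted p = 0.0155).

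Several of the 12 calls depend on 1 library. Without replicate 1 of basal Control the count was 9, and Atf4, Atf5, Pycr1 and Shmt2 lost their calls (adjusted p 0.0868, 0.12, 0.0603 and 0.0595), while Mthfd2 was called lower (adjusted p = 0.0321). Atf4 also lost its call without replicate 2 of FoxK1 KD (adjusted p = 0.0874), Atf5 without replicate 1 or 2, Pycr1 without any of 5 samples (adjusted p up to 0.114), and Slc7a5 without replicate 2 of Control or 3 or 4 of FoxK1 KD (adjusted p up to 0.0736). When the fit held the samples of these 2 groups alone, only Psat1 passed, with the other 11 at adjusted p 0.0575 to 0.211 and the same direction.

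**Figure D5:**
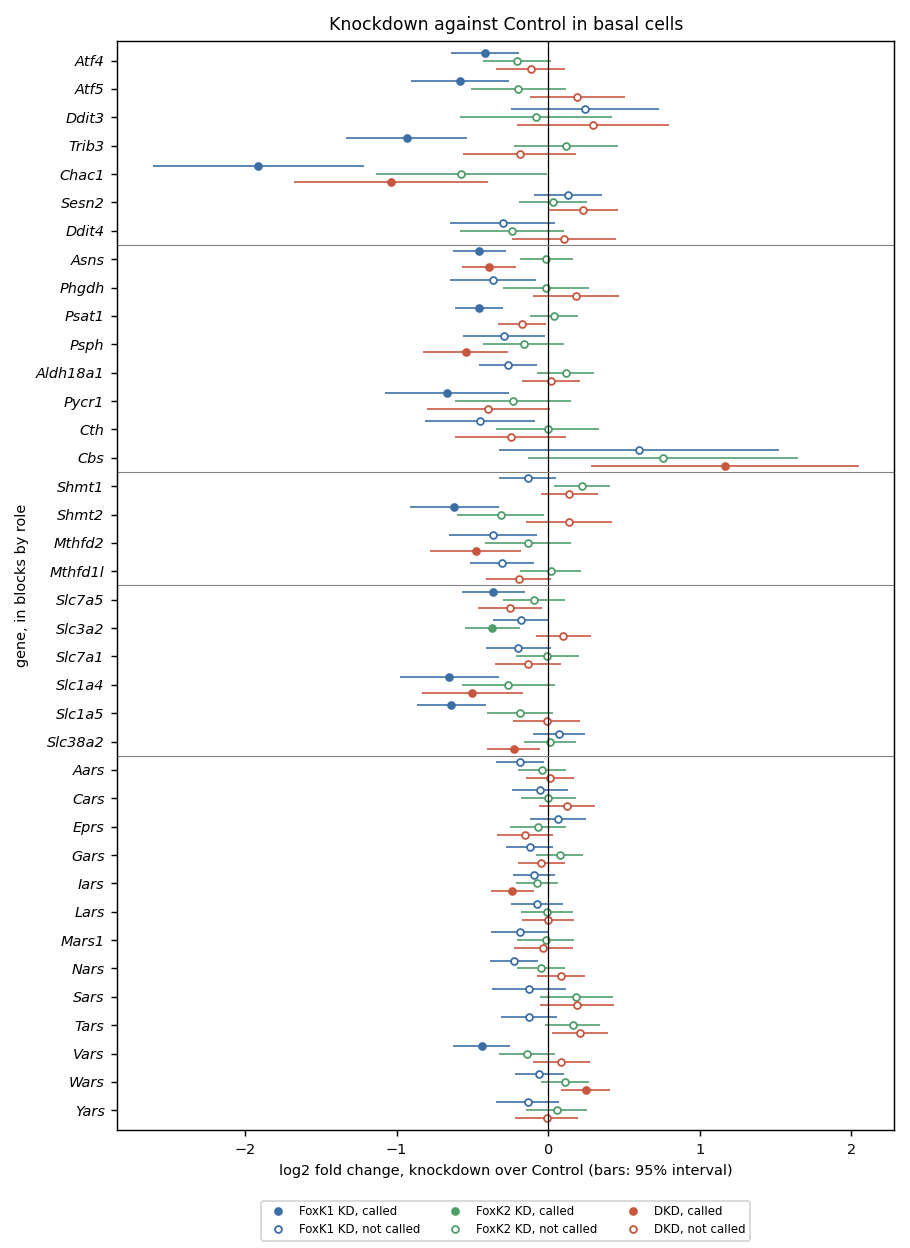
Log2 fold change of each knockdown over Control in basal cells (horizontal axis) for each of the 38 genes (vertical axis), with 95% intervals. Filled points passed the test, 12 for FoxK1 KD, 1 for FoxK2 KD and 9 for DKD, and Chac1 lies farthest left for FoxK1 KD and DKD.

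FoxK2 KD lowered 1 of the 38 in basal cells and raised 0 (background 0.167% lower and 0.211% higher), and 4 had an unadjusted p below 0.05. The gene was Slc3a2, at 680, 520, 492 and 490.5 CPM in Control and 399, 409, 426 and 453.5 in FoxK2 KD, with no overlap (log2 fold change -0.37, SE 0.09, adjusted p = 0.0477). Its call was lost without any 1 of 20 of the 30 samples, with an adjusted p of 0.23 without replicate 1 of Control. Atf4 stood at 244, 276, 271 and 278 CPM, which overlaps Control (-0.21, SE 0.11, adjusted p = 0.485).

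DKD cells in the basal state had 7 of the 38 lower and 2 higher (background 10.8% lower and 10.3% higher). The median log2 fold change was -0.01, beside 0 over all genes tested. Beside the shares of all genes called, these counts are not read as a result about the 38 genes, and single genes are described below. Those lower were Chac1, Asns, Psph, Mthfd2, Slc1a4, Slc38a2 and Iars, the isoleucyl-tRNA synthetase, and those higher Cbs and Wars, the tryptophanyl-tRNA synthetase. Psph, the last enzyme of serine synthesis, was at 47.9, 56.5, 60.8 and 49.8 CPM in Control and at 36.5, 36.1, 32.4 and 41.1 in DKD, with no overlap (-0.55, SE 0.14). Asns was at 191, 170.5, 217 and 159 CPM in Control and at 127, 138.5, 154.5 and 144 in DKD, also with no overlap (-0.39, SE 0.09, adjusted p = 0.00135). Slc1a4 was at 14.2, 15.75, 18.6 and 15.9 CPM in Control and at 14.4, 10.2, 10.6 and 10.3 in DKD (-0.50, SE 0.16). For this gene replicate 1 of DKD reached the Control range. Mthfd2 was at 21.0, 32.5, 34.2 and 29.1 CPM in Control and at 20.4, 19.5, 18.05 and 25.2 in DKD (-0.48, SE 0.15). Chac1 was at 1.44, 4.36, 2.31 and 2.82 CPM in DKD against 3.25 to 9.64 in Control (-1.04, SE 0.31). Cbs was at 0.567, 1.25, 1.985 and 1.07 CPM in Control and at 2.30, 2.91, 4.165 and 2.31 in DKD, from 2 to 10 reads a sample (1.17, SE 0.43, adjusted p = 0.0462). Mthfd2 and Chac1 overlapped between the groups and Cbs did not. Atf4 was not called (-0.12, SE 0.11, adjusted p = 0.482).

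The count of 9 in DKD cells moved with single libraries, to 6 higher and 8 lower without replicate 1 of Control (Ddit4, Phgdh, Sesn2, Shmt2 and Slc3a2 higher and Eprs and Slc7a5 lower in addition, Chac1 and Cbs lost), to 2 and 3 without replicate 3 of Control, and to 0 and 5 without replicate 1 or replicate 4 of DKD. Asns and Psph kept their calls when any 1 sample was left out and when the fit held the 2 groups alone. The other 7 lost theirs in the fit of the 2 groups (adjusted p 0.0672 to 0.203), and Cbs, Slc38a2 and Wars also when the trend with GC content and length was removed (adjusted p 0.0926 to 0.32). In that fit Atf4 (-0.29, adjusted p = 0.0345), Slc7a5 and Tars passed, which gave 1 higher and 8 lower. Across 11346 genes the log2 fold change of DKD over Control rose with GC content (Spearman's rho 0.48 as a description, genes are not replicates), more than in any other comparison, and its part in these calls beyond that fit was not tested.

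In the fixed lists, beside the 4.71% of all genes called lower, FoxK1 KD lowered 7 of 17 other targets in basal cells, led by Vegfa (-0.97), Slc6a9, the glycine transporter (-0.69), and Cebpd (-0.65), and lowered 1 of 12 kinases and partners, Atf3 (-0.63), 3 of 10 other cytosolic charging genes, Farsa (-0.46), Eef1e1 (-0.42) and Kars (-0.33), and 0 of 17 mitochondrial synthetases. It raised none of them. Spread in basal Control was wide for several of these genes. Vegfa was at 29.4 ± 13.4 CPM in Control and 14.8 ± 1.26 in FoxK1 KD (mean ± SD, n = 4). Cebpd was at 45.9 ± 15.5 and 28.6 ± 9.19, and Farsa at 77.1 ± 23.5 and 55.4 ± 4.7, in the same order. Slc6a9 (8.44 ± 1.17 and 5.275 ± 0.893) and Atf3 (34.4 ± 2.8 and 21.9 ± 3.06) varied less relative to their means. Dependence of these calls on single libraries is not given here. In basal DKD cells, where 10.3% of all genes were called higher and 10.8% lower, 3 of the 17 other targets rose and 2 fell, 1 of 12 kinases and partners rose and 3 fell, 2 of 10 other charging genes fell, and 0 of 17 mitochondrial synthetases were called. Beside the shares of all genes, these DKD counts are not read as a result about the lists. Slc7a11 had the largest of the changes in DKD cells (-1.02).

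After insulin FoxK1 KD cells had 5 of the 38 lower than Control with insulin and 0 higher (background 1.72% lower and 1.86% higher), with a median log2 fold change of -0.20. Slc7a5 was at 111, 102 and 105 CPM in Control and at 68.0, 78.4, 82.55 and 64.95 in FoxK1 KD (-0.53, SE 0.10, adjusted p = 0.00106). Mthfd1l, a mitochondrial enzyme that releases formate, was at 91.2, 100.5 and 115 CPM in Control and at 79.8, 83.25, 73.2 and 67.2 in FoxK1 KD (-0.43, SE 0.10). Slc7a1 was at 102, 89.8 and 103 CPM in Control and at 81.6, 76.9, 76.6 and 74.6 in FoxK1 KD (-0.35, SE 0.10). In all 3 every FoxK1 KD sample was below every Control sample. Asns was at 378, 374 and 371 CPM in Control and at 305, 320, 283 and 304 in FoxK1 KD (-0.31, SE 0.09, adjusted p = 0.0457). Psat1 was at 1098, 847 and 986 CPM in Control and at 812, 815, 777 and 795 in FoxK1 KD (-0.29, SE 0.08, adjusted p = 0.0399). Neither of these 2 overlapped. Slc7a5, Asns and Psat1 were also called lower in basal FoxK1 KD cells, and Mthfd1l and Slc7a1 were not called there. Atf4 was at 358 to 444 CPM against 454 to 474 in Control, a difference that was not called (-0.22, SE 0.12, adjusted p = 0.323).

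The count of 5 was 9 without replicate 1 of basal Control (Aldh18a1, Cars, Iars and Slc1a4 in addition), 2 without replicate 1 of Control with insulin, 1 without its replicate 3, 3, 2 and 1 without replicates 1, 3 and 4 of FoxK1 KD with insulin, and 3 without any 1 of 7 samples of the other groups. Slc7a5 was called in each of these fits, while Asns and Slc7a1 each lost their call without any 1 of 16 samples. Removing the GC and length trend gave 10 lower, among them Trib3, Aldh18a1, Slc1a4, Cars and Wars.

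After insulin FoxK2 KD cells had 0 of the 38 called against Control in either direction (background 0.0176% lower and 0.0088% higher). By edgeR, DESeq2 and limma-voom alike, 0 were called and 3 had an unadjusted p below 0.05. DKD cells with insulin had 1 gene lower and 0 higher (background 0.343% lower and 0.871% higher), Slc7a5, at 80.01, 69.3 and 86.0 CPM against 111, 102 and 105 in Control, with no overlap (-0.43, SE 0.10, adjusted p = 0.0269). It lost its call without replicate 1 or 3 of Control with insulin or replicate 1 or 2 of DKD with insulin (adjusted p up to 0.166), while without replicate 1 of basal Control 3 genes were called, Iars and Slc7a1 in addition.

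Whether the insulin effect itself differed between genotypes was tested as an interaction. For FoxK1 KD minus Control 0 of the 38 passed (background 0% in either direction), with 3 at an unadjusted p below 0.05 by edgeR and DESeq2 and 4 by limma-voom, none called by any of them. For FoxK2 KD minus Control 0 passed (background 0%), with 1, 2 and 1 at an unadjusted p below 0.05 by edgeR, DESeq2 and limma-voom and 0 called by the other tools. For DKD minus Control, a difference that cannot be told apart from the division of the samples described above, 0 passed (background 1% higher and 0.537% lower), with 5, 6 and 5 at an unadjusted p below 0.05 and 0 called by the other tools. The insulin effect on Atf4 differed from Control by 0.19 (95% interval -0.14 to 0.53) in FoxK1 KD, by 0.09 (-0.24 to 0.42) in FoxK2 KD and by -0.13 (-0.47 to 0.21) in DKD cells on the log2 scale.

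Chac1 had the largest difference, 1.797 in FoxK1 KD cells (95% interval 0.90 to 2.70, adjusted p = 0.125). It passed without replicate 2 of basal Control (adjusted p = 0.0328) and in the fit with no filter on low counts (adjusted p = 0.00686). In DKD cells its difference was 0.98 (SE 0.41, adjusted p = 0.232), and Cars had the lowest adjusted p, with a difference of -0.42 (SE 0.13, adjusted p = 0.0954). Cars passed without replicate 2 of basal Control (adjusted p = 0.0434), and without replicate 1 of basal Control Shmt2 (-0.61) and Slc38a2 (0.36) passed.

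Some of the counts cannot be assigned with certainty, since the strand setting of the counting is not given in the sources used here. Ddit3 and Mars1 lie on opposite strands and share 68 exonic bases, with 945 and 11090 reads over the 30 samples. Psph shares 452 exonic bases with Cct6a, Shmt1 184 with Smcr8, and Atf5 82 with Nup62, all on the opposite strand, and Aars shares 1326 with Exosc6 on the same strand, for which 0 reads were counted.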

How the data were processed

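Polyadenylated RNA of 30 AML12 samples was sequenced. The authors deposited raw read counts per gene. The submitters' processing notes name CASAVA 1.8, STAR 2.4.2a, featureCounts and GRCm38.p4, while the annotation and the strand setting of the counting are not given in the sources used here. Totals of 2141460 to 5668270 counts per sample limit precision for genes with few reads. Symbols were matched for 48435 of 49089 identifiers.

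Counts were filtered with filterByExpr, scaled by TMM and fitted over all 8 groups with edgeR 4.0.16 (R 4.3.3, quasi-likelihood F test, two-sided, no covariate), with Benjamini-Hochberg adjustment over 11368 genes and a call at an adjusted p below 0.05. The procedure was tested on simulated data. Alternatives were DESeq2 1.42.0, voom with limma 3.58.1, no filter, only the groups compared, a replicate block, each sample left out, removal of the trend with GC content and length, and the thresholds of the study (adjusted p below 0.25, with a fold above 1.5 for effects of insulin).

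Members, lists and tests were chosen with earlier results of these data known. Values in every sample are given for up to 5 called members with the largest changes per comparison and for Atf4, and values of other pathway genes for up to 3 called genes per list. Promoter windows span 250 bases before to 50 after each RefSeq start.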

Additional observations from a re-analysis of the deposited data

Results flagged for a closer look

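Among 228 sets of 4 samples (each of the 38 genes in the 6 groups of 4), 16 held a sample whose gap to its nearest neighbour passed Dixon's 95% criterion, and chance marks about 1 in 20 such sets. In basal Control cells replicate 1 was high for Ddit4 (165.3 CPM, others 77.01 to 91.25), Phgdh (422.7, others 247.3 to 269) and Slc3a2 (679.6, others 490.5 to 519.6), replicate 3 was high for Aldh18a1 (59.79 CPM, others 53.51 to 53.93), and replicate 4 was low for Trib3 (8.393 CPM, others 11.62 to 11.75). In basal DKD cells replicate 3 was low for Atf4 (240.2 CPM, others 292.3 to 302.5), replicate 4 was low for Phgdh (309.4, others 349.4 to 354.3) and replicate 1 was high for Slc1a4 (14.36, others 10.18 to 10.64).

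In basal FoxK1 KD cells replicate 2 was high for Mthfd2 (29.71 CPM, others 20.47 to 21.27). With insulin, FoxK1 KD replicate 3 was low for Sesn2 (91.44 CPM, others 116.2 to 119.1) and replicate 2 was high for Gars (1056 CPM, others 977.4 to 988.5). In basal FoxK2 KD cells replicate 1 was low for Psph (41.37 CPM, others 49.49 to 50.36), replicate 4 was high for Pycr1 (13.19, others 7.717 to 8.213) and replicate 2 was low for Eprs (313.9, others 355.5 to 362). With insulin, FoxK2 KD replicate 2 was low for Shmt1 (88.3 CPM, others 109.9 to 112.9) and for Wars (167 CPM, others 182 to 182.8).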

How the results depend on the processing

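The 152 calls of members kept their direction under every alternative. Each was recomputed under 7 settings, where significance was kept 975 times and lost 89 times, and with each of 30 samples left out, where it was kept 4383 times and lost 177 times. Counts of members called that moved by more than 1.5 times are given here against the reported count. With only the compared groups in the fit, FoxK1 KD basal gave 1, FoxK2 KD basal 0, DKD basal 2, FoxK1 KD after insulin 3 and DKD after insulin 0. With no filter, FoxK1 KD after insulin gave 2, DKD after insulin 0 and the difference in insulin effect for FoxK1 KD 1. DESeq2 gave 3 for DKD after insulin, and limma-voom gave 0 for FoxK2 KD basal. Removing the trend with GC content and length gave 10 for FoxK1 KD and 4 for DKD after insulin, and turned the 2 higher and 7 lower of DKD basal into 1 and 8. The thresholds of the study gave 23 for FoxK1 KD basal, 16 for DKD basal, 17 and 9 for FoxK1 KD and DKD after insulin, and 1 each for the difference in insulin effect for FoxK1 KD and DKD. With 1 sample left out, counts ranged from 9 to 15, 0 to 1 and 5 to 14 for FoxK1 KD, FoxK2 KD and DKD in basal cells, from 27 to 33, 30 to 34, 31 to 33 and 24 to 30 for insulin in Control, in either single knockdown (FoxK1 KD before FoxK2 KD) and in DKD cells, from 1 to 9, 0 to 0 and 0 to 3 for the knockdowns after insulin, and from 0 to 1, 0 to 0 and 0 to 2 for the differences in insulin effect. Fewer samples leave fewer degrees of freedom, and beyond that the cause was not tested.

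Same-numbered samples of different groups were no more alike than others by correlation. Their deviations had a mean r of -0.0134 (range -0.205 to 0.199), against 0.00434 for different numbers, and 5 of 30 samples correlated best with their own number. These correlations cannot show whether same-numbered samples had a culture or transfection in common. The replicate block gave 0 for FoxK2 KD basal and 2 for FoxK1 KD after insulin, and 7 of the 152 calls were lost with it, while Ddit3 passed for insulin in Control (adjusted p = 0.0316).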
